A study of Macaca mulatta with 10 samples.

Results

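The genes described here are the ligands, receptors, secreted regulators, SMAD proteins and targets of the BMP and TGF-beta pathway in the testis of the juvenile rhesus macaque (Macaca mulatta). They were chosen by name from a list of 49 gene symbols, and each was represented by the row of the count table that carried exactly that name. A row of its own was found for 41 of the 49 among 26813 loci in all. TGFB1, TGFB2 and SMAD9 occurred only in loci joined with another name, where their reads cannot be separated. NODAL, LEFTY2, CRIPTO3, NOG and TWSG1 were not analysed here. By role, the table held 12 of 16 ligands, 5 of 7 extracellular regulators, 7 of 8 receptors, 7 of 8 SMADs, 5 of 5 intracellular regulators and 5 of 5 targets.

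Total RNA of the right testis of 10 wild-type juvenile monkeys was sequenced, 1 library per animal. Animals TP15, TP16, TP17 and TP18, all 14 months old, received pulses of FSH and LH for 96 h. Animals TP08, TP10 and TP12, aged 22, 14 and 15 months, received the same gonadotropins for 48 h. Animals TP07, TP09 and TP11, aged 24, 14 and 15 months, received vehicle, and the labels do not state for how long. No 96 h animal was older than 14 months, so time under gonadotropin, the run of animal numbers and, in part, age cannot be told apart. The series asks which testicular genes change as undifferentiated spermatogonia turn towards differentiation.

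Ligands of this superfamily bind pairs of type I and type II receptor kinases, which phosphorylate the receptor SMADs. BMP receptors act mainly on SMAD1, SMAD5 and SMAD9, whereas TGF-beta and activin receptors act mainly on SMAD2 and SMAD3. Both arms share SMAD4, and secreted antagonists, inhibitory SMADs, ubiquitin ligases and corepressors hold the signal down. In mouse testis, BMP4 has been described as a Sertoli cell product that raises KIT in cultured spermatogonia, and ID4 is used as a marker of spermatogonial stem cells.

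Libraries held 21824233 to 27684954 counts at 96 h, 27824411 to 30375928 at 48 h and 23607039 to 29230966 in vehicle. Values below are CPM, which scale the counts to a common library size, here with TMM factors. A gene was called when the edgeR adjusted p over all 26813 loci was at most 0.05. In every library none of 48 measured markers of testicular and blood cell types was at 0, including those of Sertoli, Leydig, peritubular and germ cells. At 96 h against vehicle, 4 of 5 Leydig, 4 of 8 Sertoli, 3 of 5 peritubular, 3 of 5 stromal and 5 of 5 dividing-cell markers rose. So did 1 of 5 macrophage and 1 of 4 blood markers, the latter PTPRC and not HBA1, HBB or ALAS2. In contrast, 6 of 7 germ cell markers fell and 0 of 4 endothelial markers passed. Beside these counts, 10.6% of all loci rose and 6.89% fell in this comparison. In bulk tissue, fewer cells of a type and less RNA per cell cannot be told apart. Since no animal gave more than 1 library, the p-values measure the spread between animals.

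Receptors, SMADs, a corepressor and ID genes gave the highest levels, and every ligand was lower than each receptor other than ACVRL1. Per kilobase of exon, and averaged over all 10 animals, the BMP type I receptor BMPR1A was highest at 33.9 CPM per kb. SMAD2 followed with 25.0 CPM per kb, the type II receptor BMPR2 with 21.7, the corepressor SKIL with 19.9 and the target ID2 with 18.1 CPM per kb. The highest ligand, TGFB3, reached 4.46 CPM per kb, and the highest extracellular regulator, the protease BMP1, 5.77 CPM per kb. The lowest levels were those of GDF15 (0.579 CPM per kb), BMPER (0.414), GDF5 (0.396) and GDF6 (0.261). The deposited table holds only loci with a CPM of at least 1 in at least 3 libraries, so weaker members would have no row.

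**Figure D1:**
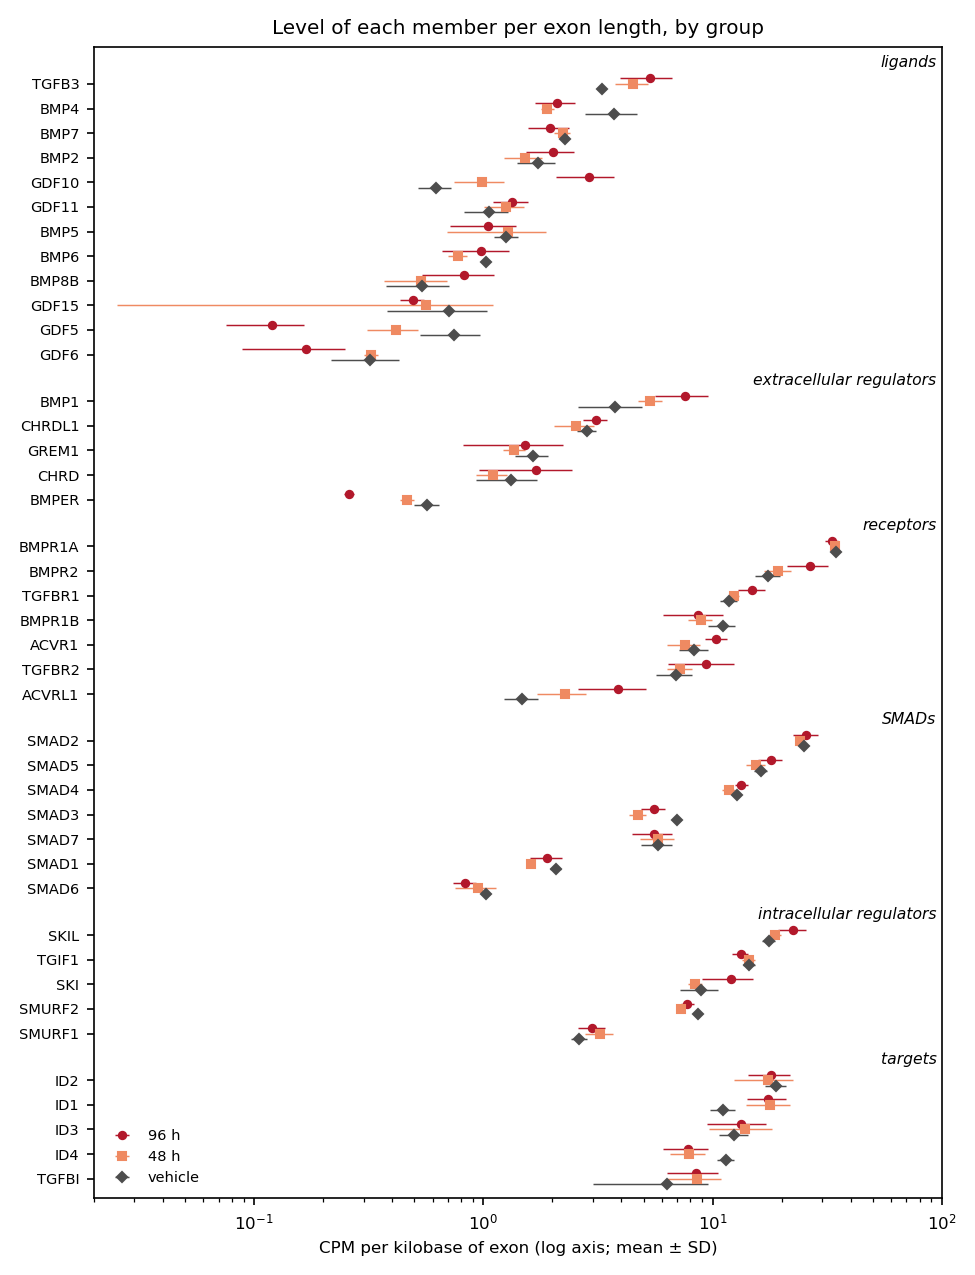
Level of each of the 41 measured members in CPM per kilobase of exon on a log axis, grouped by role; symbols are means of the 96 h (n = 4), 48 h (n = 3) and vehicle (n = 3) animals and bars are ± 1 SD. The receptor BMPR1A had the highest mean over all animals at 33.9 CPM per kb, and the ligand GDF6 the lowest at 0.261 CPM per kb.

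At 96 h, 7 members rose relative to vehicle and 5 fell, 12 of 41 or 29.3%, beside 17.5% of all loci called in the same fit (21.3% of the loci with 1 gene name). The members that rose were the ligands GDF10 and TGFB3, the receptors BMPR2 and ACVRL1, the protease BMP1, the corepressor SKIL and the target ID1. The members that fell were the ligands BMP4 and GDF5, the BMP-binding protein BMPER, SMAD3 and the target ID4. Calls by role were 4 of 12 ligands, 2 of 7 receptors, 2 of 5 extracellular regulators and 1 of 7 SMADs. Of the intracellular regulators 1 of 5 was called and of the targets 2 of 5. These small counts are to be read beside the 17.5% of all loci. Among all loci, 10.6% rose and 6.89% fell. The animals of the groups did not overlap for 14 members (34.1%), against 30.7% of all loci. The median log2 fold change of the 41 members was 0.07, beside -0.01 over all loci, and the median size of change was 0.33, beside 0.34. The pathway thus moved in both directions, and its median change was close to that of the table as a whole.

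The number of calls depended on the animals. It was 4 without vehicle TP07, 4 without vehicle TP11, 7 without vehicle TP09 and 5 without TP17 of the 96 h group. Calls over all loci fell too, from 2836 higher and 1848 lower to 1592 and 618 without TP07 and 1612 and 707 without TP11. They were 1933 and 1153 without TP09 and 1904 and 875 without TP17. With age as a covariate 5 members were called, and 4 without the 2 animals over 20 months (TP07 and TP08). All loci then gave 2213 higher and 861 lower with age, and 1449 and 492 without those animals. Upper-quartile scaling gave 3 higher and 6 lower members in place of 7 and 5, and 1687 higher and 3532 lower among all loci. Age as a covariate ended the calls of BMP4, BMPR2, TGFB3, SKIL, ID1, ID4 and SMAD3, upper-quartile scaling those of BMPR2, TGFB3, SKIL and ID1, and a fit of the 2 groups alone those of SKIL, ID4 and SMAD3. Voom ended the calls of TGFB3 and ID1, and RLE scaling and exactTest that of SMAD3. GDF10, GDF5, ACVRL1 and BMPER passed as reported and in all 17 alternatives tried.

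**Figure D2:**
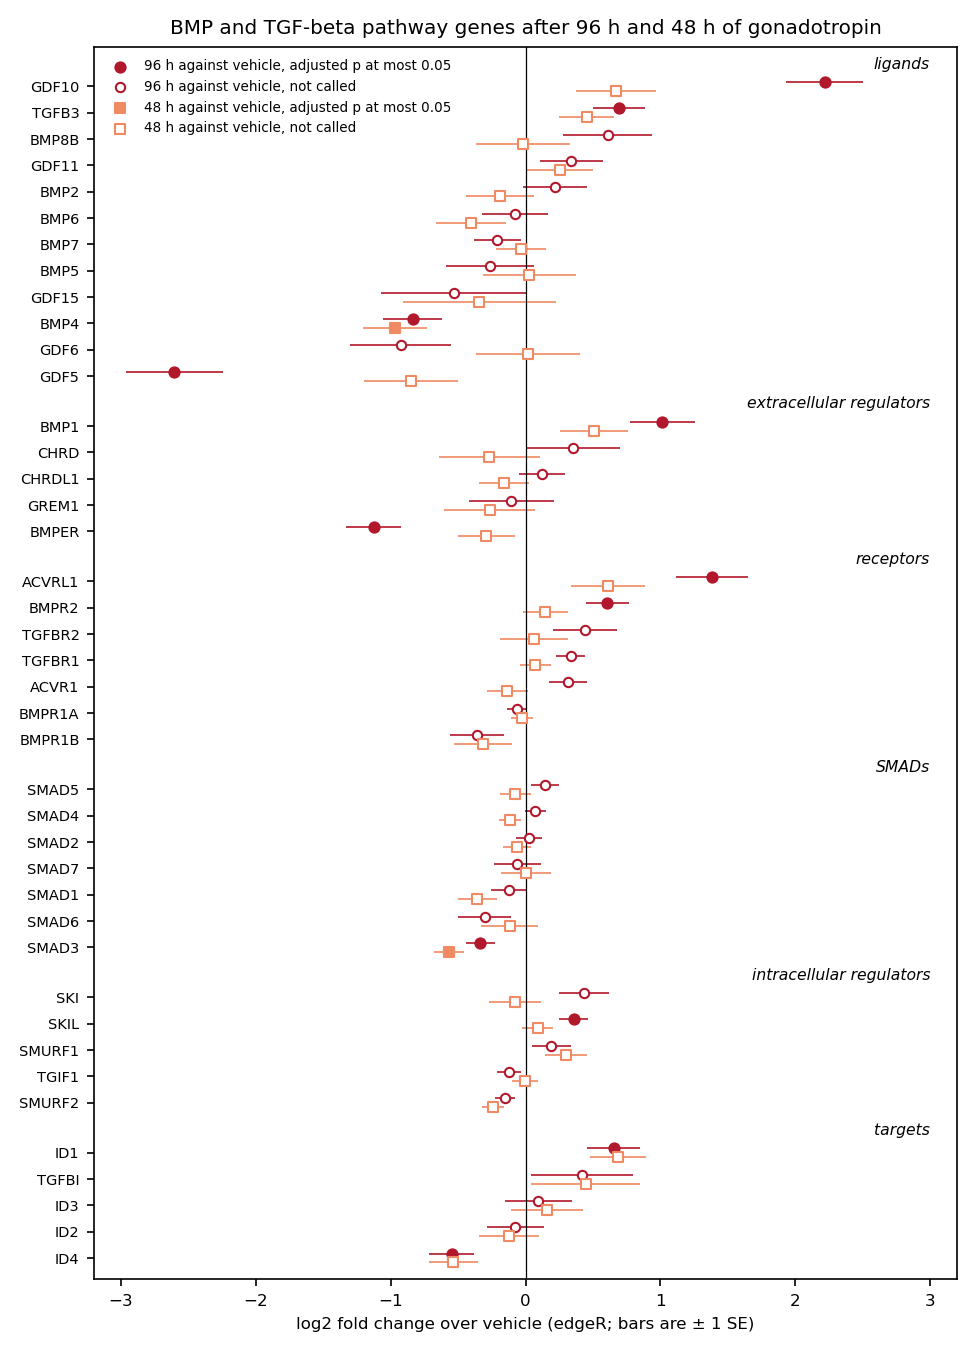
Log2 fold change over vehicle of each of the 41 members at 96 h (circles) and 48 h (squares), grouped by role, with bars of ± 1 SE from edgeR; filled symbols have an adjusted p of at most 0.05. GDF10 at 2.22 and GDF5 at -2.60 mark the extremes at 96 h, and the filled squares are BMP4 and SMAD3.

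Among the ligands, GDF10 rose most at 96 h and GDF5 fell most. GDF10, a divergent TGF-beta family ligand related to BMP3 (chromosome 9, 41817236 to 41830563 on rheMac8), had 5.71, 6.73, 8.05 and 10.9 CPM in the 96 h animals, 3.10, 1.91 and 3.01 CPM in the 48 h animals and 1.98, 1.44 and 1.62 CPM in the vehicle animals. All 96 h animals lay above every 48 h and vehicle animal, and TP18 was highest. The log2 fold change over vehicle was 2.22 ± 0.29 (SE, edgeR adjusted p = 0.000872), a 4.65-fold rise. At 48 h it was 0.67 ± 0.29 (adjusted p = 0.163). GDF5, a BMP family ligand best known from joint and cartilage formation (chromosome 10, 28686374 to 28691482), had 0.242, 0.434, 0.253 and 0.196 CPM in the 96 h animals, 0.708, 1.01 and 1.20 CPM in the 48 h animals and 2.34, 1.40 and 1.52 CPM in the vehicle animals. These values rest on 5 to 12 counts per library at 96 h, 21 to 37 at 48 h and 35 to 71 in vehicle. GDF5 met the limit of 1 CPM in at least 3 libraries only with the vehicle animals, beside TP10 and TP12 at 48 h. Had its vehicle values been as low as its 96 h values, with the others unchanged, GDF5 would have had no row. That limit therefore bears on its fall, and the alternatives, all run on the deposited rows, do not remove it. The 96 h animals were all below the 48 h animals, and those were all below the vehicle animals. GDF5 fell 6.08-fold at 96 h relative to vehicle, which is -2.60 ± 0.36 on the log2 scale (edgeR adjusted p = 0.00128), and its 48 h value of -0.85 ± 0.35 did not pass (adjusted p = 0.139).

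BMP4, a ligand of the BMP type I receptors (chromosome 7, 115913485 to 116038792), had 6.58, 4.02, 5.97 and 5.68 CPM in the 96 h animals, 4.92, 4.83 and 5.44 CPM in the 48 h animals and 12.7, 7.78 and 9.21 CPM in the vehicle animals. Both gonadotropin groups lay wholly below vehicle, in which TP07, the oldest animal, was highest. BMP4 fell by 0.84 on the log2 scale at 96 h (SE 0.22, edgeR adjusted p = 0.0257) and by 0.97 at 48 h (SE 0.24, adjusted p = 0.0227). The 96 h call was lost without TP07 (adjusted p = 0.121), TP11 (0.06) or TP17 (0.0507), with age as a covariate (0.0892) and without the animals over 20 months (0.15). The 48 h call was lost without TP07 (adjusted p = 0.084), TP11 (0.0515), TP08 (0.0842), TP10 (0.062) or TP12 (0.0566), and without the animals over 20 months (0.207).

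TGFB3, the TGF-beta isoform linked in rat testis to opening of Sertoli cell junctions (chromosome 7, 138392291 to 138417849), had 31.7, 17.8, 25.4 and 20.4 CPM in the 96 h animals, 16.6, 23.2 and 20.6 CPM in the 48 h animals and 14.2, 15.4 and 14.5 CPM in the vehicle animals. Every gonadotropin animal lay above the narrow vehicle range, and TP15 was highest. TGFB3 rose by 0.69 ± 0.19 at 96 h on the log2 scale (SE, edgeR adjusted p = 0.0319), while its 48 h value of 0.45 ± 0.20 did not pass (adjusted p = 0.173). The 96 h call was lost in 9 of 17 alternatives. Among these, the adjusted p was 0.0625 without TP15, 0.0763 without TP17, 0.0997 without TP07, 0.0675 without TP09 and 0.0944 without TP11.

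The other 8 ligands did not pass at either time. Their 96 h log2 fold changes ran from -0.92 for GDF6 to 0.61 for BMP8B. GDF6, a close relative of GDF5, averaged 0.621 ± 0.296 CPM at 96 h (SD, n = 4), 1.20 ± 0.0893 CPM at 48 h (n = 3) and 1.19 ± 0.389 CPM in vehicle (n = 3), with an edgeR adjusted p of 0.108 at 96 h against vehicle. BMP2, which like BMP4 binds BMPR1A, averaged 7.28 ± 1.74 CPM at 96 h (SD, n = 4), 5.48 ± 1.02 CPM at 48 h (n = 3) and 6.24 ± 1.19 CPM in vehicle (n = 3). BMP7 averaged 9.05 ± 1.84 CPM at 96 h (SD, n = 4), 10.2 ± 0.824 CPM at 48 h (n = 3) and 10.5 ± 0.368 CPM in vehicle (n = 3), and BMP5 of the same subgroup 5.42 ± 1.73 CPM at 96 h (SD, n = 4), 6.63 ± 3.05 CPM at 48 h (n = 3) and 6.51 ± 0.773 CPM in vehicle (n = 3). The groups of BMP2, BMP5 and BMP7 overlapped. BMP8B averaged 4.64 ± 1.60 CPM at 96 h (SD, n = 4), 3 ± 0.922 CPM at 48 h (n = 3) and 3.05 ± 0.929 CPM in vehicle (n = 3), and its value is uncertain because reads may be shared with its near-identical copy, known in human as BMP8A. GDF15, a stress-induced ligand, had the largest spread among ligands relative to its mean at 48 h, with 1.24 ± 1.18 CPM (SD, n = 3). BMP6 and GDF11 had 96 h log2 fold changes of -0.08 and 0.34. The exons of BMP6 share 193 bases with a locus on the opposite strand and those of BMP8B share 191, and the strand setting of the counting is not given in the sources used here.

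Loci that join a ligand with another name were tested as well. The locus of TGFB1 together with LOC106992315 had 15.5, 6.73, 11.5 and 8.58 CPM in the 96 h animals, 4.76, 8.87 and 6.96 CPM in the 48 h animals and 3.07, 6.99 and 5.10 CPM in the vehicle animals. Its log2 fold change of 1.07 ± 0.35 at 96 h did not pass (edgeR adjusted p = 0.0593), and TP16 lay below vehicle TP09. TP18 and TP16 also overlapped the 48 h animals. The locus of TGFB2 together with RRP15 had a 96 h log2 fold change of 0.18 ± 0.14 (adjusted p = 0.388).

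**Figure D3:**
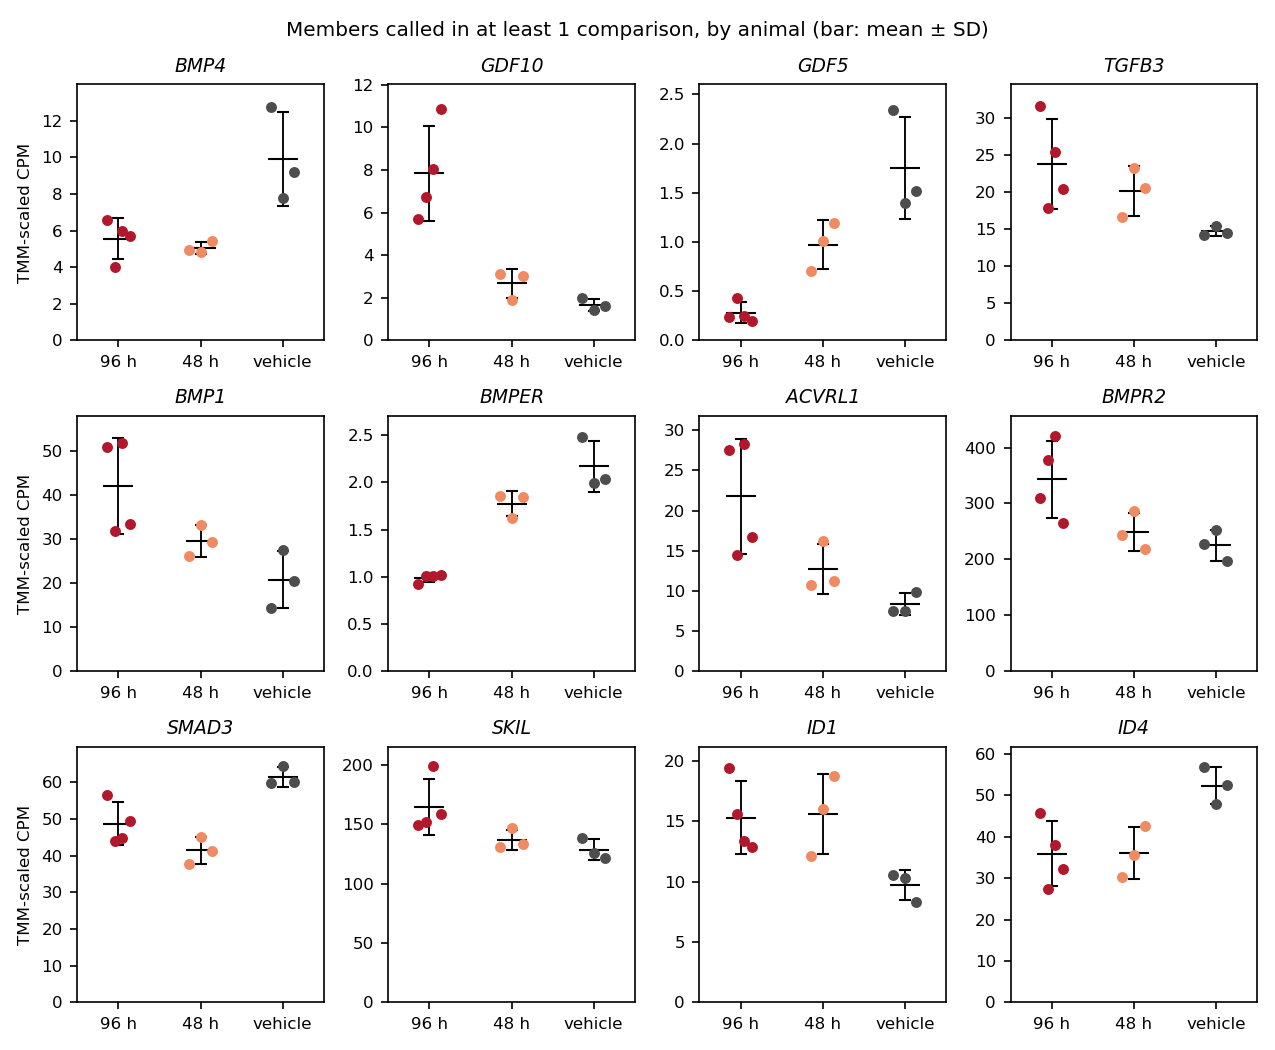
TMM-scaled CPM of the 12 members called in at least 1 comparison, 1 point per animal, for the 96 h (n = 4), 48 h (n = 3) and vehicle (n = 3) groups; horizontal lines are means and bars ± 1 SD, and every axis starts at 0. GDF10 and BMPER separate the 96 h animals from both other groups, whereas the means at 96 h and 48 h lie close together for ID1 (15.3 and 15.6 CPM) and ID4 (35.8 and 36.1 CPM).

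Of the 5 extracellular regulators, BMP1 rose and BMPER fell at 96 h. BMP1 is a metalloprotease, not a family ligand, that cleaves the antagonist chordin and trims procollagens (chromosome 8, 22060093 to 22108445). It had 51, 31.8, 51.9 and 33.4 CPM in the 96 h animals, 26.1, 33.3 and 29.4 CPM in the 48 h animals and 14.5, 27.5 and 20.5 CPM in the vehicle animals. The 96 h animals were all above vehicle, with TP15 and TP17 well above TP16 and TP18, and the 48 h animals overlapped both groups. BMP1 rose by 1.01 ± 0.24 on the log2 scale (SE, edgeR adjusted p = 0.0191), a call lost without TP07 (adjusted p = 0.0628), without TP11 (0.0648) and without the animals over 20 months (0.0777).

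BMPER, a secreted BMP-binding protein related to fly crossveinless-2 (chromosome 3, 73906586 to 74151605), had 0.920, 1.01, 1.01 and 1.02 CPM in the 96 h animals, 1.85, 1.62 and 1.84 CPM in the 48 h animals and 2.48, 2 and 2.04 CPM in the vehicle animals. At 96 h the animals lay close together below all others, and every 48 h animal lay below every vehicle animal. The 96 h values rest on 19 to 28 counts per library, too few to read their closeness as a small spread. BMPER fell 2.18-fold at 96 h relative to vehicle, which is -1.13 ± 0.20 on the log2 scale (edgeR adjusted p = 0.00476). The 48 h value of -0.29 ± 0.21 did not pass (adjusted p = 0.398), nor did the difference between 96 h and 48 h of -0.84 ± 0.20 (adjusted p = 0.0786).

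The antagonists GREM1, CHRD and CHRDL1 were not called. GREM1 averaged 6.60 ± 3.07 CPM at 96 h (SD, n = 4), 5.92 ± 0.634 CPM at 48 h (n = 3) and 7.12 ± 1.18 CPM in vehicle (n = 3). CHRD, the substrate of BMP1, averaged 3.71 ± 1.62 CPM at 96 h (SD, n = 4), 2.40 ± 0.371 CPM at 48 h (n = 3) and 2.90 ± 0.874 CPM in vehicle (n = 3). CHRDL1 averaged 11.5 ± 1.34 CPM at 96 h (SD, n = 4), 9.44 ± 1.87 CPM at 48 h (n = 3) and 10.6 ± 0.992 CPM in vehicle (n = 3). For GREM1 and CHRD the 95% intervals of the 96 h log2 fold change were wide, -0.80 to 0.59 and -0.42 to 1.12.

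Among the receptors, 2 of 7 rose at 96 h and none fell, beside 10.6% and 6.89% of all loci. The 96 h and vehicle animals did not overlap for 2 of 7 (28.6%), against 30.7% of all loci. ACVRL1, the type I receptor ALK1 that binds BMP9 and BMP10 and is best known from endothelium (chromosome 11, 50209448 to 50226097), had 27.5, 14.5, 28.3 and 16.7 CPM in the 96 h animals, 10.8, 16.3 and 11.2 CPM in the 48 h animals and 7.53, 7.55 and 9.92 CPM in the vehicle animals. Vehicle was exceeded by all 96 h animals, and TP15 and TP17 were again the higher pair. ACVRL1 rose 2.60-fold, or by 1.38 ± 0.27 on the log2 scale (SE, edgeR adjusted p = 0.00694). The 48 h animals also lay above vehicle, but the value of 0.61 ± 0.28 did not pass (adjusted p = 0.178). Summed over 4 endothelial markers, none of which was called, the level was 99.9, 44.5, 91.8 and 66.9 CPM in the 96 h animals TP15 to TP18, 51.9, 115 and 53.5 CPM in the 48 h animals TP08, TP10 and TP12 and 48.3, 74.5 and 71.9 CPM in the vehicle animals TP07, TP09 and TP11. At 96 h, TP15 and TP17 were highest in this sum as in ACVRL1, and at 48 h TP10 was highest in both. In vehicle the orders differed, with TP09 highest in the sum and TP11 in ACVRL1. TP10 also had the highest sum of all animals, but less ACVRL1 than TP15, TP17 and TP18. The groups overlapped in the sum, and its part in the ACVRL1 values was not tested.

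BMPR2, the type II BMP receptor (chromosome 12, 83976597 to 84187873), had 309, 378, 420.1 and 265 CPM in the 96 h animals, 244, 286 and 219 CPM in the 48 h animals and 228, 252 and 196 CPM in the vehicle animals. Every 96 h animal lay above vehicle, with TP18 lowest and within the 48 h range. BMPR2 rose by 0.61 ± 0.16 on the log2 scale (edgeR adjusted p = 0.0267), and the 48 h value was 0.15 ± 0.17 (adjusted p = 0.61). The call was lost without TP16 (adjusted p = 0.0531), TP17 (0.0651), TP07 (0.08) or TP11 (0.103), and under upper-quartile scaling (0.0632), with age as a covariate (0.0698) and without the animals over 20 months (0.105). Its exons share 168 bases with a locus on the opposite strand.

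BMPR1A, the most abundant member per kilobase and a type I receptor for BMP2 and BMP4 (chromosome 9, 45349626 to 45517434), had 180, 204, 208 and 189.7 CPM in the 96 h animals, 208, 193 and 200 CPM in the 48 h animals and 211, 201 and 200 CPM in the vehicle animals. The 3 groups overlapped, and the 95% interval of its 96 h log2 fold change was -0.23 to 0.10. TGFBR1 averaged 139 ± 18.9 CPM at 96 h (SD, n = 4), 116 ± 5.91 CPM at 48 h (n = 3) and 110.5 ± 9.41 CPM in vehicle (n = 3) and narrowly missed the threshold at 96 h (edgeR adjusted p = 0.0584). TGFBR2, its type II partner, averaged 74.9 ± 24 CPM at 96 h (SD, n = 4), 57.6 ± 7.13 CPM at 48 h (n = 3) and 55.1 ± 9.74 CPM in vehicle (n = 3). ACVR1, the type I receptor ALK2, averaged 37.8 ± 4.17 CPM at 96 h (SD, n = 4), 27.6 ± 4.63 CPM at 48 h (n = 3) and 30.4 ± 4.46 CPM in vehicle (n = 3). In TGFBR1, TGFBR2 and ACVR1 the 96 h animals overlapped those of vehicle. BMPR1B, the type I receptor ALK6, averaged 93.2 ± 27.3 CPM at 96 h (SD, n = 4), 96.2 ± 11.4 CPM at 48 h (n = 3) and 119.6 ± 16.3 CPM in vehicle (n = 3) and was highest in vehicle TP07.

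Of the 7 SMADs, SMAD3 fell and the others were not called. SMAD3, a receptor SMAD of the TGF-beta and activin arm (chromosome 7, 43883736 to 44013921), had 56.7, 44, 44.7 and 49.6 CPM in the 96 h animals, 37.9, 45.2 and 41.4 CPM in the 48 h animals and 59.8, 64.5 and 60.1 CPM in the vehicle animals. Vehicle animals were above all gonadotropin animals, and TP15 came nearest to them. SMAD3 fell by 0.33 on the log2 scale at 96 h (SE 0.11, edgeR adjusted p = 0.0498) and by 0.57 at 48 h (SE 0.11, adjusted p = 0.00915). The 48 h call was lost in 1 of 16 alternatives, without the animals over 20 months (adjusted p = 0.0873). The 96 h call was lost in 11 of 17, with adjusted p of 0.0888, 0.117 and 0.0725 without TP16, TP17 or TP18 and 0.105, 0.13 and 0.107 without TP07, TP09 or TP11.

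SMAD2, the other receptor SMAD of that arm and the most abundant SMAD (chromosome 18, 36737277 to 36835538), had 259, 345, 317 and 288 CPM in the 96 h animals, 287, 291 and 275 CPM in the 48 h animals and 307, 289.5 and 293 CPM in the vehicle animals. The groups overlapped, and the 96 h log2 fold change was 0.03 ± 0.10 (95% interval -0.18 to 0.24). The shared SMAD4 averaged 216 ± 13.7 CPM at 96 h (SD, n = 4), 189.6 ± 12.8 CPM at 48 h (n = 3) and 205 ± 5.31 CPM in vehicle (n = 3). The BMP-arm SMAD5 averaged 229 ± 28.2 CPM at 96 h (SD, n = 4), 196 ± 18.4 CPM at 48 h (n = 3) and 207 ± 13.5 CPM in vehicle (n = 3), and SMAD1 of the same arm 18.4 ± 2.94 CPM at 96 h (SD, n = 4), 15.6 ± 0.406 CPM at 48 h (n = 3) and 20 ± 1.13 CPM in vehicle (n = 3). All SMAD1 values at 48 h were below those of vehicle, and the difference of -0.36 ± 0.14 on the log2 scale did not pass (edgeR adjusted p = 0.13). The inhibitory SMAD6 and SMAD7 had 96 h log2 fold changes of -0.30 and -0.06. SMAD9, counted with an unnamed transcript, had a 96 h log2 fold change of -0.22 ± 0.15 (adjusted p = 0.314).

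Of the intracellular regulators, SKIL alone was called. SKIL encodes SnoN, a corepressor that binds SMAD2, SMAD3 and SMAD4 (chromosome 2, 123398240 to 123436109), and had 149, 152, 199 and 158 CPM in the 96 h animals, 131, 147 and 134 CPM in the 48 h animals and 139, 126 and 121 CPM in the vehicle animals. All others were exceeded by the 96 h animals, and TP17 was highest. SKIL rose by 0.36 ± 0.11 on the log2 scale (SE, edgeR adjusted p = 0.0445) and its 48 h value was 0.09 ± 0.11. The 96 h call was lost in 9 of 17 alternatives, with adjusted p of 0.0815 and 0.0584 without TP17 or TP18 and 0.0709, 0.109 and 0.146 without TP07, TP09 or TP11. SKI, the founding corepressor of that family, averaged 58.9 ± 14.7 CPM at 96 h (SD, n = 4), 41.2 ± 3 CPM at 48 h (n = 3) and 43.6 ± 8.07 CPM in vehicle (n = 3), with an edgeR adjusted p of 0.124 at 96 h against vehicle. SMURF2, a ubiquitin ligase for receptors and SMADs, averaged 69.1 ± 4.40 CPM at 96 h (SD, n = 4), 64.9 ± 1.26 CPM at 48 h (n = 3) and 76.7 ± 1 CPM in vehicle (n = 3), and the gonadotropin animals were all below vehicle without passing (adjusted p = 0.179 at 96 h and 0.072 at 48 h). SMURF1 and the corepressor TGIF1 had 96 h log2 fold changes of 0.19 and -0.12.

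Of the 5 targets, ID1 rose and ID4 fell at 96 h. The ID proteins are inhibitors of helix-loop-helix transcription factors and are standard BMP targets. ID1 (chromosome 10, 32470501 to 32471615) had 19.4, 15.6, 13.3 and 12.9 CPM in the 96 h animals, 12.1, 16 and 18.7 CPM in the 48 h animals and 10.5, 10.3 and 8.30 CPM in the vehicle animals. All gonadotropin animals lay above vehicle. ID1 rose by 0.65 ± 0.20 on the log2 scale at 96 h (SE, edgeR adjusted p = 0.0422), and its 48 h value of 0.68 ± 0.21 was as large but did not pass (adjusted p = 0.0548). The 96 h call was lost in 10 of 17 alternatives, with adjusted p of 0.0914, 0.0673 and 0.0586 without TP15, TP16 or TP17 and 0.0856, 0.0788 and 0.146 without TP07, TP09 or TP11.

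ID4 (chromosome 4, 20217005 to 20222535) had 45.7, 27.5, 37.9 and 32.2 CPM in the 96 h animals, 30.2, 35.5 and 42.7 CPM in the 48 h animals and 56.7, 47.8 and 52.5 CPM in the vehicle animals. The vehicle animals were above all others, by a small margin over TP15. ID4 fell by 0.55 on the log2 scale at 96 h (SE 0.17, edgeR adjusted p = 0.0465), and the 48 h value of -0.54 ± 0.18 did not pass (adjusted p = 0.0803). The 96 h call was lost in 9 of 17 alternatives, with adjusted p of 0.0744, 0.0821 and 0.0907 without TP16, TP17 or TP18 and 0.147, 0.0685 and 0.113 without TP07, TP09 or TP11. Summed over 7 germ cell markers, the animals had 208 to 306 CPM at 96 h, 247 to 292 CPM at 48 h and 419 to 457 CPM in vehicle. Their part in the fall of ID4 was not tested.

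ID2, the most abundant target per kilobase (chromosome 13, 8625447 to 8627949), had 30.1, 19, 29 and 22.6 CPM in the 96 h animals, 16.6, 26.4 and 30 CPM in the 48 h animals and 27.2, 23.5 and 28.8 CPM in the vehicle animals. The groups overlapped, with a 96 h log2 fold change of -0.08 ± 0.21 (95% interval -0.54 to 0.39). ID3 averaged 17.2 ± 4.94 CPM at 96 h (SD, n = 4), 18 ± 5.51 CPM at 48 h (n = 3) and 16.1 ± 2.33 CPM in vehicle (n = 3). TGFBI, a matrix protein induced by TGF-beta, averaged 27.1 ± 6.82 CPM at 96 h (SD, n = 4), 27.6 ± 7.26 CPM at 48 h (n = 3) and 20.3 ± 10.6 CPM in vehicle (n = 3), and vehicle TP07 was far below the other vehicle animals at 8.06 CPM.

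At 48 h, 2 of 41 members (4.88%) were called, beside 12.2% of all loci, and none of them rose. Both, BMP4 and SMAD3, fell. Among all loci, 8.53% rose and 3.67% fell, and 15.5% of the loci with 1 gene name were called. Unadjusted p was below 0.05 for 10 of 41 members, beside 7489 of 26813 loci. The animals of the groups did not overlap for 12 members (29.3%), against 36.1% of all loci. The median log2 fold change of the members was -0.06 and that over all loci -0.07. DESeq2 called 4 members and upper-quartile scaling 5, and without the animals over 20 months 0 were called. All loci gave 3386 higher and 1693 lower by DESeq2 and 1392 and 1732 under upper-quartile scaling. Without those animals they gave 696 and 156, in place of 2288 and 985. Leaving out TP07, TP10, TP11 or TP12 left 1.

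Between 96 h and 48 h, 1 member (2.44%) was called, beside 1.07% of all loci (0.817% higher and 0.25% lower) and 1.37% of the loci with 1 gene name. GDF10 was higher at 96 h by 1.55 ± 0.28 on the log2 scale (SE, edgeR adjusted p = 0.0296). GDF5 had a log2 fold change of -1.75 ± 0.37 and narrowly missed the threshold (adjusted p = 0.0518). Unadjusted p was below 0.05 for 11 of 41 members, beside 5614 of 26813 loci. The groups did not overlap for 8 members (19.5%), against 16.5% of all loci. The GDF10 call was lost without TP08 (adjusted p = 0.106), TP10 (0.0702), TP12 (0.0733), TP17 (0.085) or TP18 (0.062), without the animals over 20 months (0.12) and in a fit of the 2 groups alone (0.0578). Asked for any difference among the 3 groups, edgeR called 8 members (BMP4, GDF5, GDF10, BMPR2, ACVRL1, BMP1, BMPER and SMAD3), beside 17.2% of all loci. The comparisons with vehicle share its 3 animals and are not independent of each other.

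The authors' deposited table, made with edgeR, called 9 of 41 members at 96 h against vehicle at an adjusted p of at most 0.05. It called 3886 of all 26813 loci in that comparison. Of these, the authors' deposited table had 5 higher (GDF10, TGFB3, BMPR2, ACVRL1 and BMP1) and 4 lower (BMP4, GDF5, BMPER and ID4), and all 9 were called here in the same direction. At 48 h the authors' deposited table called BMP4 and SMAD3, both lower, and 2854 loci in all. Between 96 h and 48 h the authors' deposited table called GDF10 higher and GDF5 lower, with an adjusted p of 0.0161 for GDF5. In all it called 746 loci there.

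Further genes of the pathway came from a list of 74 symbols, of which 51 had a row of their own. At 96 h against vehicle 9 rose and 2 fell, 11 of 51 or 21.6%. This was close to the 21.3% of loci with 1 gene name, beside 17.5% of all loci. The median log2 fold change of the 51 was 0.13, beside -0.01 over all loci. Those that rose included extracellular factors: FSTL1, a secreted glycoprotein that binds BMP4 (chromosome 2, 41575773 to 41632602), had 666, 474, 738 and 465 CPM in the 96 h animals, 363, 452 and 392 CPM in the 48 h animals and 300.3, 344 and 366 CPM in the vehicle animals. All FSTL1 values at 96 h exceeded those of both other groups, by 0.80 ± 0.17 over vehicle on the log2 scale (SE, edgeR adjusted p = 0.0106). ITGAV, the integrin chain that helps to release latent TGF-beta (chromosome 12, 73882115 to 73975973), rose by 0.81 ± 0.18 (adjusted p = 0.0123), and NEO1, a receptor of the BMP co-receptors of the RGM family (chromosome 7, 50560015 to 50819037), by 0.61 ± 0.13 (adjusted p = 0.0103). SNAI2, a transcription factor induced by TGF-beta (chromosome 8, 46451094 to 46454673), rose by 1.16 ± 0.27 (adjusted p = 0.019), and TP16 overlapped vehicle. BGN, TLL1, STUB1 and FKBP1A were also among those that rose, and TGIF2 and HEY1 fell.

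At 48 h, 2 of these 51 genes were called (3.92%, beside 12.2% of all loci and 15.5% of the loci with 1 gene name). FKBP1A, which binds type I receptors and holds them inactive (chromosome 10, 34139592 to 34164230), had 99.2, 77.3, 97.2 and 99.1 CPM in the 96 h animals, 106, 107 and 103 CPM in the 48 h animals and 66.4, 64.5 and 78.6 CPM in the vehicle animals. It rose by 0.60 ± 0.11 at 48 h on the log2 scale (SE, edgeR adjusted p = 0.00698). The 48 h and vehicle animals did not overlap, whereas TP16 at 96 h lay below vehicle TP11. NEDD4L, a ubiquitin ligase for activated SMAD2 and SMAD3 (chromosome 18, 47508292 to 47876103), had 60.6, 59.8, 67.9 and 58.6 CPM in the 96 h animals, 48.2, 58.1 and 51.2 CPM in the 48 h animals and 67.4, 81 and 68.3 CPM in the vehicle animals. It fell by 0.46 on the log2 scale at 48 h (SE 0.11, adjusted p = 0.018). Between 96 h and 48 h edgeR called 0 of the 51, beside 1.07% of all loci and 1.37% of the loci with 1 gene name. DESeq2 called 7 of the 51 and exactTest 1. All loci gave 1059 higher and 787 lower by DESeq2 and 599 and 289 by exactTest. The unadjusted edgeR p was below 0.05 for 17 of the 51, beside 5614 of 26813 loci. Without vehicle TP07, and likewise without the animals over 20 months, 1 of the 51 was called at 96 h. Without TP15 6 were called, and without TP17 or TP11 5. The FSTL1 and ITGAV calls were lost without TP07 (adjusted p = 0.0503 and 0.0562), and the SNAI2 call without TP07 (0.0719) or TP11 (0.0682). At 48 h, NEDD4L was lost without TP08 (0.0803), TP12 (0.0633) or TP09 (0.0735). FKBP1A at 96 h was lost without TP17 (0.0561), TP07 (0.0871) or TP09 (0.0766).

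The 96 h animals differed among themselves in the same way for many members. TP16 was the lowest of the 4 in 21 of 41 members and TP15 the highest in 19. At 48 h, TP08 was the lowest of 3 in 20 members and TP10 the highest in 21. These orders were not counted over all loci, so the members and the libraries as a whole cannot be told apart here. Summed over 5 stromal markers, TP15 and TP17 had 17028 and 15535 CPM at 96 h and TP16 and TP18 had 6699 and 7784 CPM. The 48 h animals had 4420 to 7580 CPM and the vehicle animals 2612 to 5287 CPM. The 5 peritubular markers summed to 490 to 1124 CPM at 96 h, 567 to 868 CPM at 48 h and 353 to 391 CPM in vehicle. Of the called members, BMP1, ACVRL1 and TGFB3, which rose, and BMP4 and ID4, which fell, were highest in TP15 and TP17 as well. The part of stromal, peritubular and endothelial RNA in these values was not tested. The other called members did not share this order. GDF10 was highest in TP18 and TP17, BMPR2 in TP17 and TP16, and SKIL in TP17 and TP18. ID1 was highest in TP15 and TP16, SMAD3 in TP15 and TP18, and GDF5 in TP16 and TP17. The 4 BMPER values at 96 h lay between 0.920 and 1.02 CPM.

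**Figure D4:**
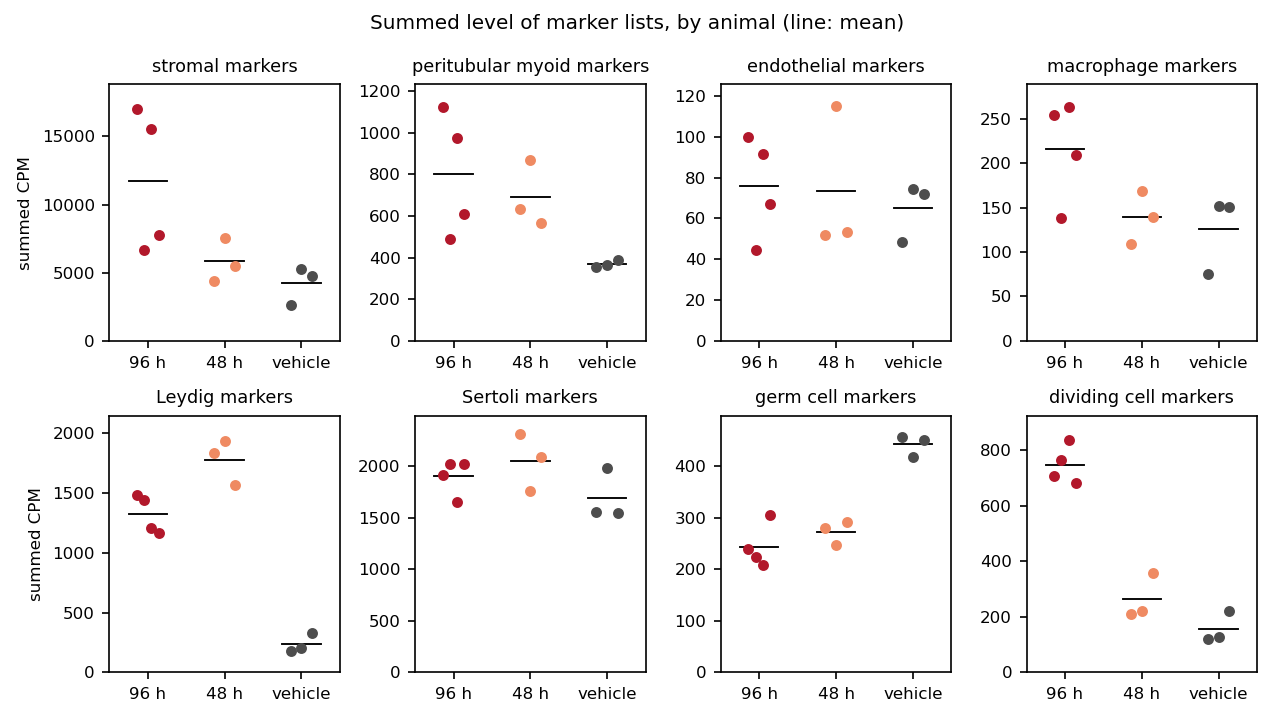
Summed CPM of the markers of 8 cell types and states, 1 point per animal, for the 96 h (n = 4), 48 h (n = 3) and vehicle (n = 3) groups; lines are means and axes start at 0. Stromal sums at 96 h spread from 6699 to 17028 CPM, and germ cell sums were below those of vehicle in every gonadotropin animal.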

How the data were processed

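Per the labels' protocols, libraries were made with a stranded total RNA kit from Trizol extracts. Per the submitters' processing notes, HTSeq 0.6.1p1 was used beside cutadapt 1.9.1, edgeR, Cufflinks 2.2.1, and the aligners Bowtie2 2.2.8 and TopHat2 2.1.1, with rheMac8. The strand setting of the counting is not given in the sources used here. The deposited counts per locus are whole numbers and were tested here. The authors also deposited log2 fold changes and adjusted p-values, which are given only where that table is named. Coordinates and exon lengths come from the deposited transcript models. A single edgeR 4.0.16 fit of group means took in the 10 libraries (glmQLFTest on a robust glmQLFit after TMM scaling, under R 4.3.3). P-values were Benjamini-Hochberg adjusted over 26813 loci. The SE was taken from the F statistic, and 95% intervals from the t distribution with the total degrees of freedom of that test. Replicate pairs differed by 15.8 to 49.4 in chi-square per degree of freedom, so each library counted as 1 replicate. The script for the tests was checked on simulated data.

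Members and lists were chosen with earlier results of these data known. Animal values are given for members called in any comparison and for the most abundant member per kilobase of each role. Of the further pathway genes, the called ones with the 4 smallest p per comparison are described. Alternatives were RLE and upper-quartile scaling, a filter on low counts (mean log2 CPM of at least 0, 25242 loci), DESeq2 1.42.0, exactTest, voom in limma 3.58.1, fits of the compared groups alone, age as a covariate, omission of the animals over 20 months, summed loci (26050 rows) and omission of each animal. Plots were drawn with Python 3.11.15 and matplotlib 3.10.9.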

Additional observations from a re-analysis of the deposited data

Results flagged for a closer look

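GDF10 differed between the times: its log2 fold change over vehicle was larger at 96 h than at 48 h by 1.55, tested as the difference between the 96 h and 48 h animals (edgeR adjusted p = 0.0296). That call was lost in 7 of 17 alternatives, among them the omission of any 48 h animal.

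Within the 4 animals at 96 h, 1 animal stood apart from the other three for 5 genes, by a gap to its neighbour beyond Dixon's 95% critical value for 4 samples. BMPER was lowest in TP15 at 0.920 CPM (gap 0.934 of the range), SMAD4 highest in TP17 at 236 CPM (0.887), SMAD7 highest in TP18 at 34.6 CPM (0.945), ID3 highest in TP15 at 24.6 CPM (0.902) and FKBP1A lowest in TP16 at 77.3 CPM (0.910). The BMPER values at 96 h span only 0.920 to 1.02 CPM and rest on 19 to 28 counts per library. In all, 47 genes were looked at in this way, and chance alone puts about 1 in 20 groups beyond that limit.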

How the results depend on the processing

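No paired analysis was possible because the labels give the groups no shared replicate numbers. Relative to 12, 2 and 1 members called (96 h against vehicle, 48 h against vehicle, 96 h against 48 h), DESeq2 gave 13, 4 and 2, exactTest 11, 3 and 3, the filter on low counts 12, 2 and 2, separate fits of each pair of groups 9, 3 and 0, an age covariate 5, 2 and 1, and omission of the animals over 20 months 4, 0 and 0. Upper-quartile scaling gave 9, 5 and 1. It shifted the median of all loci by -0.15 at 96 h and -0.13 at 48 h, to -0.16 and -0.20, beside a median of -0.08 and -0.19 over the members. RLE scaling gave 1 higher and 2 lower members at 48 h. Omission of single animals gave 4 to 11, 1 to 2 and 0 to 2 members. Calls over all loci varied as well. At 96 h against vehicle they were 2836 higher and 1848 lower as reported. DESeq2 gave 3910 and 2461, exactTest 2829 and 2216 and the separate fit 2438 and 1347. At 48 h they were 2288 and 985 as reported, and 3386 and 1693 by DESeq2. For 48 h, exactTest gave 2312 and 1410 and the separate fit 2636 and 954. Between 96 h and 48 h they were 219 higher and 67 lower as reported. DESeq2 gave 1059 and 787 there, exactTest 599 and 289 and the separate fit 144 and 34. Without the animals over 20 months the calls between these times were 2 and 1, and without TP08 1 and 1. Any difference among the groups was called for 8 members, 2 without the animals over 20 months and 4 to 9 without single animals.

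Of the further pathway genes, 11 at 96 h became 7 in the separate fit, 6 with age and 1 without the animals over 20 months (1 to 14 without single animals). Upper-quartile scaling gave 7 higher and 8 lower and RLE 11 and 1, in place of 9 and 2. The 2 at 48 h became 5 by DESeq2, 5 in the separate fit and 0 without the animals over 20 months (1 to 3 without single animals), with 1 higher and 2 lower under upper-quartile scaling and 2 and 1 under RLE. Between 96 h and 48 h, 0 became 7 by DESeq2 and 1 by exactTest.

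Log2 fold changes that changed sign belonged to values that were not called. BMPR1A at 48 h was 0.0034 under RLE and DESeq2 and 0.019 in the separate fit, and -0.053 to 0.00049 without single animals. For 96 h against 48 h, BMPR1A ran from -0.068 to 0.00034 without single animals. ID2 at 96 h ran from -0.17 to 0.030 and at 48 h from -0.30 to 0.090 without single animals, and was 0.11 at 48 h without the animals over 20 months. ID2 at 96 h against 48 h was -0.024 with age, -0.17 without the animals over 20 months and -0.17 to 0.23 without single animals. SKIL at 48 h was -0.036 and SMAD2 at 96 h -0.12 under upper-quartile scaling, and SMAD2 ran from -0.049 to 0.095 without single animals. The cause of these differences was not tested. Depth limits GDF5, at 5 to 12 counts per library at 96 h, and BMPER, at 19 to 28.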
